A study of Mus musculus with 24 samples.

Results

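Growth arrest genes that are known as targets of p53 or FOXO are described here in the livers of fed and fasted mice, with and without a hepatocyte deletion in the gene for p110α. The set holds 10 genes: the cell cycle inhibitors Cdkn1a and Cdkn1b, the stress sensors Gadd45a, Gadd45b and Gadd45g, the repressor Bcl6, the cyclin Ccng2, the sestrins Sesn1 and Sesn3, and the p53 ligase Mdm2. Their probes were found by gene name among the probes outside controls, and the probe with the highest mean log2 median signal over the arrays stood for its gene. The 10 genes had 18 probes, of which 16 passed the filter on dim probes, and the main probe of each of the 10 genes was among those 16. They are 10 of 21495 genes tested and of 37325 gene symbols on the array.

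RNA from 24 livers was hybridised to 24 arrays, 1 mouse on each, and the labels give 6 mice in each of 4 groups. All mice were 12 weeks old, male and killed at Zeitgeber time 16, which is during the dark phase. LWT_Fed and LWT_Fasted were littermates that carried floxed p110α alleles and no albumin-Cre. LKO_Fed and LKO_Fasted were albumin-Cre+/- p110α flox/flox, so that both genotypes carried floxed alleles and the albumin promoter drove Cre in hepatocytes. Fed mice ate ad libitum, and fasted mice were without food for 24 h. The design asks how fasting changes liver RNA and how much of the fed and fasted pattern differs when p110α, a catalytic subunit of the PI3K that carries the insulin signal, is deleted in hepatocytes.

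FOXO factors are held out of the nucleus when insulin acts through PI3K and AKT, and they enter it when insulin is low. They then bind genes of glucose production, autophagy and cell cycle exit. The p53 protein is stabilised by DNA damage and other stress and acts on an overlapping set of arrest and repair genes, and Mdm2, itself a p53 target, marks p53 for degradation. In liver, several genes of this set are also known to follow feeding, glucocorticoids, glucagon and growth hormone, and most hepatocytes of an adult mouse are not cycling.

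The promoters below are those in which a search found a motif of the 2 factor families, and those of the 2 genes called higher on arrays labelled LKO. RefSeq start sites on GRCm38.p6 gave 13 promoters for the 10 genes, each of 300 bases from 250 before the start site to 50 from it onwards. Both strands were searched for the FOXO core GTAAACA, which other forkhead factors also bind, and for CAAAACA, the core of the insulin response element of several liver genes. The p53 site was searched as a pair of abutting half-sites of 10 bases each with at most 1 base off in 20. Cdkn1a and Sesn1 have 2 promoters each, of which the one that starts first along the gene is shown. Capitals mark each match.
Cdkn1a, plus strand of chr17:29090729-29091028: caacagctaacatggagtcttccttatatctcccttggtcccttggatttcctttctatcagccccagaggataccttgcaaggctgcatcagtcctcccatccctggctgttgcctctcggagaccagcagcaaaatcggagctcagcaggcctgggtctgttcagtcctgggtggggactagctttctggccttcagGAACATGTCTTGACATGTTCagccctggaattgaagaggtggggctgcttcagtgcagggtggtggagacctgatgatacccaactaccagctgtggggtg
Ccng2, plus strand of chr5:93267323-93267622: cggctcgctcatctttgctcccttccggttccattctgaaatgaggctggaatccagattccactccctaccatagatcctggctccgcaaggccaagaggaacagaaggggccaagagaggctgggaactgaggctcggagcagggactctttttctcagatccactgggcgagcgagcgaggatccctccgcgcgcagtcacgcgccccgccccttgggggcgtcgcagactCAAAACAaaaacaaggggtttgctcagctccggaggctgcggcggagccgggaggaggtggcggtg
Sesn1, plus strand of chr10:41810324-41810623: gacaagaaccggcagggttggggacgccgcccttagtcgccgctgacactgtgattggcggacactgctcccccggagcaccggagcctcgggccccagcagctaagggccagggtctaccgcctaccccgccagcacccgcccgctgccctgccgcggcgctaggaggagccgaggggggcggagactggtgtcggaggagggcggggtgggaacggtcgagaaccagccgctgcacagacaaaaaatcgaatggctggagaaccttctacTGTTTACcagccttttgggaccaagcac
Mdm2, minus strand of chr10:117710709-117711008: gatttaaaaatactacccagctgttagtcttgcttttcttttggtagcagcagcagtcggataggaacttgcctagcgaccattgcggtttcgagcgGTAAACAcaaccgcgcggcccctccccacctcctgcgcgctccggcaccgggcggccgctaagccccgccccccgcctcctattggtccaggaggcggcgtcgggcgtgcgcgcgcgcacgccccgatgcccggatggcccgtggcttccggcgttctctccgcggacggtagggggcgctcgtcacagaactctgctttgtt
Gadd45b, plus strand of chr10:80929841-80930140: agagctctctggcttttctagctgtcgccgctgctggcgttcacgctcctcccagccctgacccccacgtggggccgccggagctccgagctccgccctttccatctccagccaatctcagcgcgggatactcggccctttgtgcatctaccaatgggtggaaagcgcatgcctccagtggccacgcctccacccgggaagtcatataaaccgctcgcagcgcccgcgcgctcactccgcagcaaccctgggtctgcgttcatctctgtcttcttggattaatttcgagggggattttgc
Gadd45g, plus strand of chr13:51846425-51846724: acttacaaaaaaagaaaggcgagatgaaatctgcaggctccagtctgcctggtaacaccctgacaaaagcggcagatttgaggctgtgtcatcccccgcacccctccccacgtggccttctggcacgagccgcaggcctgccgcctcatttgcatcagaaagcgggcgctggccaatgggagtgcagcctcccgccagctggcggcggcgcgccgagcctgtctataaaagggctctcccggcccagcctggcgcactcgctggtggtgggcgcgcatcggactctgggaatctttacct

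The p53 site stood from 51 to 32 bases upstream of the first start site of Cdkn1a, and 0.0883% of all 32851 promoters of the same length held such a match. The second Cdkn1a promoter held none of the 3 motifs. The Cdkn1a probe that lies first along the gene did not pass the filter. It was well above background on 1 of 6 LWT_Fasted arrays and on 0 of 6 in each other group. Which start site gave the RNA read by the main probe was not tested. The CAAAACA match of Ccng2 lay from 16 to 10 bases upstream of the start site, and 6.28% of all promoters held these letters on either strand. Of the 13 promoters, 2 held the FOXO core, against 3.65% of all promoters. These were Mdm2, from 153 to 147 bases upstream, and Sesn1, where it lay on the minus strand from 22 to 28 bases downstream of the start site. The windows of Gadd45b and Gadd45g held none of the 3 motifs, which says only that these letters are not in them. A match is a run of letters and was not tested as a binding site.

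Between 54.7% and 63.0% of the spots of an array were well above background, and no spot was saturated. The 24 arrays lay on 3 slides, with 2 arrays of every group on each slide. The brightest Pik3ca probe was higher on fed arrays labelled LKO and near level in fasted mice. Its mean normalized log2 signal was 11.91 ± 0.21 (SD, n = 6) in LWT_Fed and 12.54 ± 0.26 (SD, n = 6) in LKO_Fed, a difference of 0.58 (SE 0.11, limma adjusted p = 0.00132). Between the fasted groups it differed by -0.02 (SE 0.12, adjusted p = 0.925), and the interaction was -0.60 (SE 0.16, adjusted p = 0.0279). The place of the probe relative to the deleted exons was not examined, so its level was not read as a check of the labels, and directions between genotypes are given for arrays labelled LKO and LWT. The mean log2 signal of 6 hepatocyte markers stayed between 17.2 and 17.7 on all arrays. In bulk tissue, fewer cells of a type and less RNA per cell cannot be told apart. Of the other cell type lists, no lymphocyte, Kupffer cell or neutrophil marker was called in any comparison (limma), with 4 of 6, 6 of 6 and 3 of 4 markers tested and at most 3, 2 and 2 of them at an unadjusted p under 0.05. The pancreas markers Cpa1, Prss2 and Pnlip were not well above background on any array.

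Fasting moved most of these genes, and in both directions. Genes were called at a limma adjusted p of 0.05 or less together with a change of more than 1.5-fold. In LWT mice, 4 of the 10 genes were called higher after fasting (Cdkn1a, Gadd45g, Gadd45b and Ccng2) and 2 were called lower (Bcl6 and Gadd45a), while 4.79% of all genes tested were called higher and 5.24% lower. Without a minimum fold, 9 of 10 passed, against 42.0% of all genes. The fed and fasted ranges of 6 of the 10 genes did not overlap, against 21.6% of all genes. In LKO mice, the same 4 genes were called higher and Bcl6, Gadd45a and Sesn3 were called lower, against 5.88% and 6.85% of all genes. There, 8 of 10 passed without a minimum fold, against 41.5% of all genes, and the ranges of 8 of 10 did not overlap, against 22.1% of all genes. The median log2 difference of the 10 genes was 0.31 in LWT and 0.25 in LKO, against -0.01 and -0.02 over all genes tested.

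Fewer of the genes differed between genotypes. In fed mice, 1 of 10 was called higher on arrays labelled LKO (Gadd45g), against 2.65% of all genes, and 0 were called lower, against 1.19%. Of the 10, 2 passed without a minimum fold, against 16.7% of all genes, and 3 had an unadjusted p under 0.05 in limma. The share of all genes at that unadjusted p was not computed, so such counts, here and elsewhere, have no background beside them. The ranges of 1 gene, Gadd45g, did not overlap, against 8.62% of all genes. In fasted mice, 2 were called higher on arrays labelled LKO (Gadd45b and Gadd45g), against 1.76% of all genes, and 1 was called lower (Cdkn1a), against 2.28%. There, 4 passed without a minimum fold, against 20.7%, and the ranges of 1 gene, Bcl6, did not overlap, against 8.69%. The test of whether the fasting change itself differed between genotypes called 0 of 10 in limma, against 1.58% of all genes called with a larger and 1.54% with a smaller value in LKO. None passed without a minimum fold, against 8.14% of all genes, and Cdkn1b was the only member with an unadjusted p under 0.05. Each group of arrays serves in 2 of the pairwise comparisons, so these share samples and are given side by side.

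**Figure D1:**
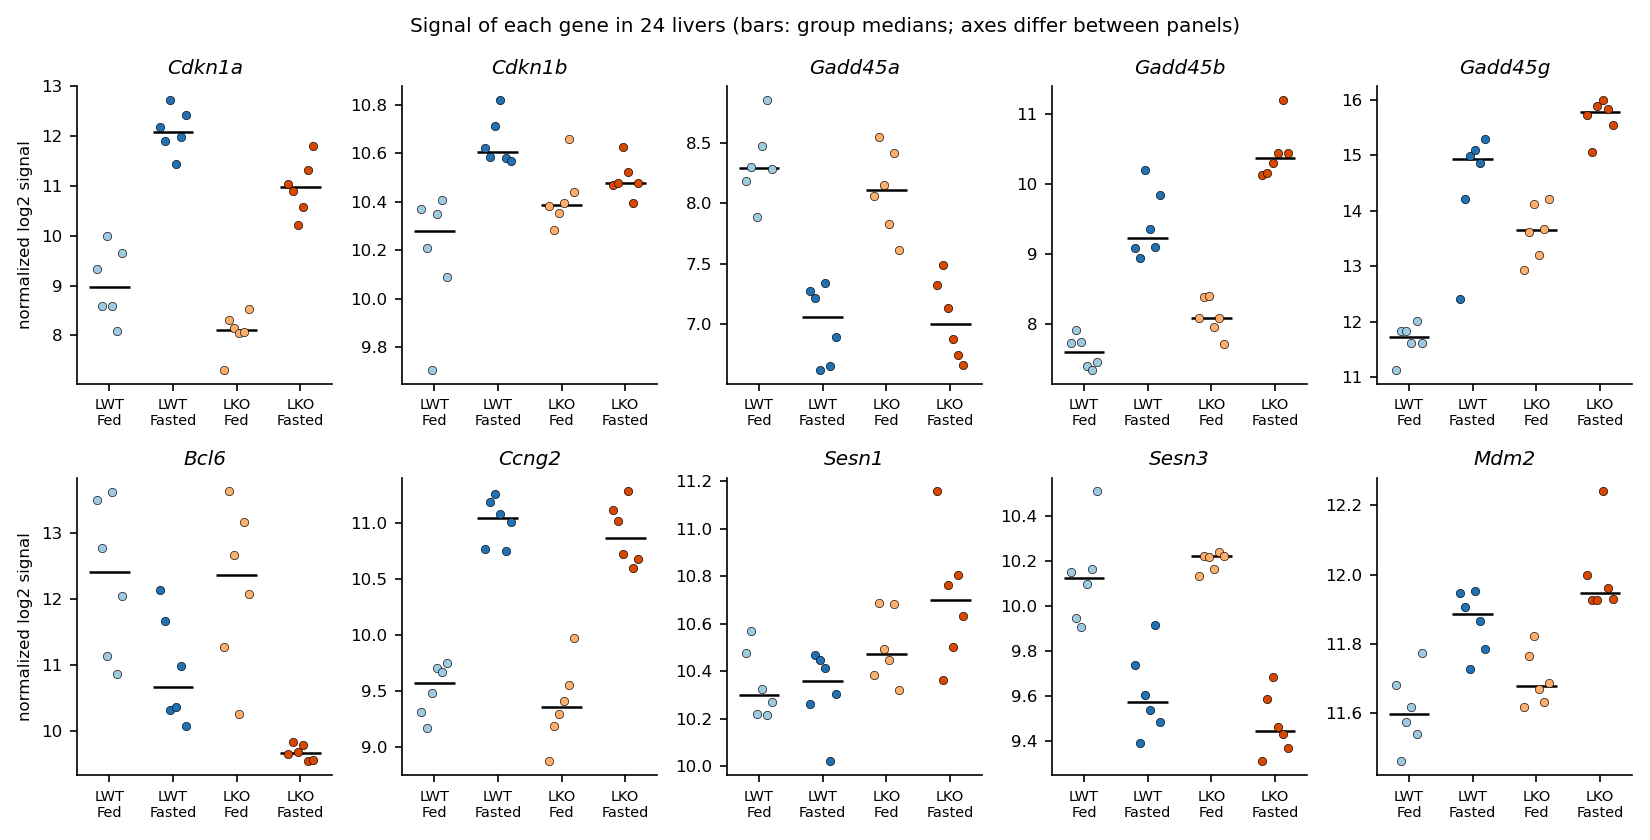
Normalized log2 signal of the main probe of each of the 10 genes (vertical axis, scaled for each gene) in the 6 mice of each group (points), with group medians as bars. Fed and fasted mice separate for Cdkn1a, Gadd45a, Gadd45b, Gadd45g and Ccng2 in both genotypes, Bcl6 is spread over 10.3 to 13.6 in fed mice, and fed LKO mice lie above all fed LWT mice for Gadd45g.

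**Figure D2:**
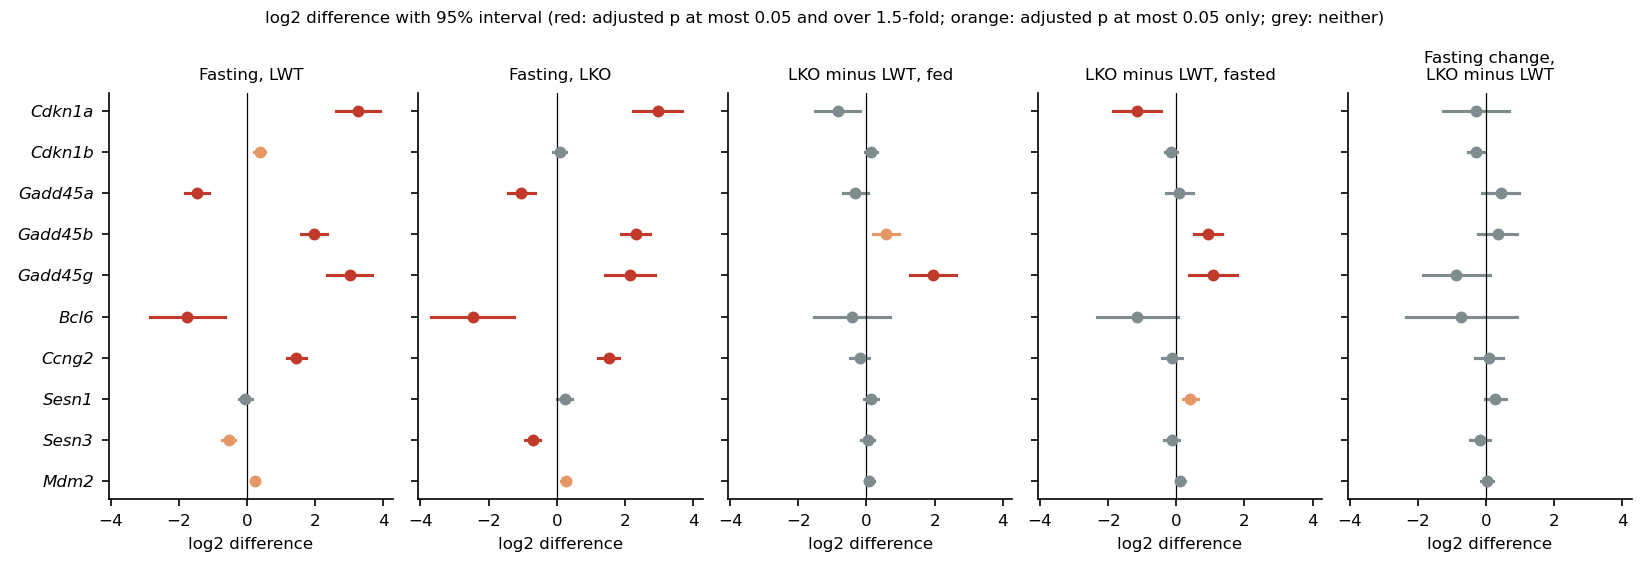
The log2 difference of each gene (point) with its 95% interval (line) in the 4 pairwise comparisons and the interaction, from limma on all 24 arrays. Red marks an adjusted p of at most 0.05 with over 1.5-fold, orange the adjusted p alone and grey neither; the fasting panels hold 6 and 7 red points and the interaction panel none.

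Cdkn1a encodes p21, which binds and inhibits cyclin-dependent kinases. Its main probe lies at chr17:29237377-29237436 (mm9). In LWT_Fed its normalized log2 signal was 8.08 at the lowest, 8.96 at the median and 10.01 at the highest mouse. In LWT_Fasted the same 3 values were 11.44, 12.08 and 12.74. Every fasted LWT mouse stood above every fed LWT mouse. The rise was 9.57-fold, a log2 difference of 3.26 (SE 0.31, adjusted p = 3.21e-08). In LKO_Fed the signal ran from 7.31 over a median of 8.11 to 8.54, and in LKO_Fasted from 10.21 over 10.97 to 11.81. Again the fed and fasted ranges did not overlap, and the rise was 7.79-fold, a log2 difference of 2.96 (SE 0.35, adjusted p = 4.7e-07). It was the largest fasting difference of the 10 genes in either genotype.

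Cdkn1a was lower on arrays labelled LKO in the fasted state. There 5 of 6 LKO mice lay below all LWT mice, and the log2 difference was -1.14 (SE 0.34, adjusted p = 0.0204), or 2.21-fold. In the fed state the difference was -0.85 (95% interval -1.51 to -0.18, adjusted p = 0.0757), which did not pass, and 3 of 6 LKO mice lay below all LWT mice. The fed difference was called without array weights (adjusted p = 0.0372), without a slide term (0.0372), on the series matrix values (0.0495) and without LWT_Fed replicate 5 (0.0267). The fasted call was lost when LKO_Fasted replicate 3 (adjusted p = 0.0771), LWT_Fasted replicate 3 (0.0713) or LWT_Fasted replicate 6 (0.0907) was left out, and on the 2 fasted groups alone (0.0567). Within the 3 slides, the fasted difference was -1.42, -1.69 and -0.28. The fasting changes of Cdkn1a did not differ between genotypes by the test of the interaction, with a log2 value of -0.30 (95% interval -1.26 to 0.67, adjusted p = 0.754). A second, dimmer probe, well above background in 3 of 6 LWT_Fed and 1 of 6 LKO_Fed mice, also rose with fasting, with log2 differences of 1.04 for LWT (adjusted p = 6.81e-05) and 0.72 for LKO (adjusted p = 0.0059). It was lower on fasted arrays labelled LKO by a log2 difference of -0.60 (adjusted p = 0.0329).

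Cdkn1b encodes p27, an inhibitor of the same kinases that marks resting cells. Its probe, at chr6:134875424-134875483 (mm9), ran from 9.70 over a median of 10.28 to 10.41 in LWT_Fed and from 10.57 over 10.60 to 10.82 in LWT_Fasted. The ranges did not overlap, but the rise was small, a log2 difference of 0.38 (SE 0.08, adjusted p = 0.000438), or 1.30-fold, and was not called. In LKO the values were 10.28, 10.39 and 10.66 fed and 10.40, 10.48 and 10.63 fasted, a difference of 0.09 (95% interval -0.10 to 0.27, adjusted p = 0.464). The fasting change was smaller in LKO by a log2 value of -0.29 (95% interval -0.54 to -0.05, adjusted p = 0.127), which did not pass after adjustment. A second, dimmer probe went the other way, with a log2 difference of -0.19 in LWT (adjusted p = 0.0564), 0.07 in LKO (adjusted p = 0.572) and an interaction of 0.26 (95% interval 0.01 to 0.51, adjusted p = 0.189), so the direction of the interaction depends on the probe. Neither genotype comparison of the main Cdkn1b probe passed, with differences of 0.13 in fed mice (95% interval -0.04 to 0.30) and -0.17 in fasted mice (95% interval -0.34 to 0.01), where the second probe gave -0.24 and 0.02.

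The GADD45 proteins are small acidic proteins that bind the kinase MAP3K4, PCNA and p21 and serve in stress signalling, repair and DNA demethylation. Gadd45a, the member best known as a p53 target, fell with fasting, while Gadd45b and Gadd45g rose. Gadd45a (chr6:66985376-66985435, mm9) ran from 7.89 over a median of 8.29 to 8.86 in LWT_Fed and from 6.61 over 7.05 to 7.34 in LWT_Fasted. No fasted mouse reached the lowest fed mouse, and the log2 difference was -1.47 (SE 0.17, adjusted p = 5.73e-07), or 2.77-fold. In LKO it ran from 7.61 over 8.11 to 8.55 fed and from 6.65 over 7.0 to 7.49 fasted. The ranges again did not overlap, and the difference was -1.04 (SE 0.19, adjusted p = 0.000147). Between genotypes it differed by -0.34 in fed mice (95% interval -0.70 to 0.03, adjusted p = 0.214) and by 0.09 in fasted mice (95% interval -0.30 to 0.48, adjusted p = 0.781), and neither passed.

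Gadd45b, known in liver as an early gene of regeneration, rose with fasting and was higher on arrays labelled LKO. Its probe at chr10:80394367-80394426 (mm9) gave 7.34, 7.60 and 7.91 as the lowest, median and highest values in LWT_Fed and 8.94, 9.24 and 10.21 in LWT_Fasted. The corresponding values were 7.72, 8.09 and 8.40 in LKO_Fed and 10.13, 10.37 and 11.21 in LKO_Fasted. Fasted mice lay above all fed mice of their genotype, and the rise was 3.92-fold in LWT (log2 difference 1.97, SE 0.18, adjusted p = 2.36e-08) and 5.0-fold in LKO (2.32, SE 0.21, adjusted p = 7.74e-09). In fasted mice, 4 of 6 arrays labelled LKO lay above all LWT arrays, and the difference was 0.93 (SE 0.20, adjusted p = 0.00233), or 1.90-fold. It was called in each fit that left out 1 array, and within the 3 slides was 0.91, 1.11 and 1.05. In fed mice, 5 of 6 arrays labelled LKO lay above all LWT arrays and the difference of 0.58 (SE 0.19, adjusted p = 0.0417) passed, but at 1.49-fold it stood just under the minimum fold and was not called. It crossed that minimum on the processed signal (0.73, adjusted p = 0.0174), with the array row as a further term (0.60) and over probes well above background on all 24 arrays (0.59). Without LKO_Fed replicate 1, LKO_Fed replicate 6, LWT_Fed replicate 2 or LWT_Fed replicate 3 it was also called, at 0.62, 0.63, 0.61 and 0.59. In contrast, its adjusted p rose above 0.05 without array weights, without a filter on probes, without LKO_Fed replicate 2, 3, 4 or 5, without LWT_Fed replicate 1, 4, 5 or 6, without LKO_Fasted replicate 2 and without both LKO_Fasted replicates 1 and 2. The lowest difference over the alternatives was 0.46 (without LKO_Fed replicate 3) and the highest adjusted p was 0.14 (without LWT_Fed replicate 5).

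Gadd45g, a growth inhibitor induced by cytokines, had the largest genotype difference of the set. Its probe at chr13:51943733-51943792 (mm9) gave 11.13, 11.72 and 12.00 as the lowest, median and highest values in LWT_Fed and 12.94, 13.65 and 14.21 in LKO_Fed. All 6 fed arrays labelled LKO lay above all 6 fed arrays labelled LWT. The difference was 3.87-fold, or 1.95 on the log2 scale (SE 0.32, adjusted p = 0.000398), and within the 3 slides it was 2.00, 1.83 and 2.06. In LWT_Fasted the values were 12.41, 14.93 and 15.29, and in LKO_Fasted 15.07, 15.79 and 16.01. Fasting raised Gadd45g 8.08-fold in LWT (3.01, SE 0.32, adjusted p = 1.19e-07) and 4.40-fold in LKO (2.14, SE 0.35, adjusted p = 4.06e-05), and in neither genotype did fed and fasted mice overlap.

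LWT_Fasted replicate 1, at 12.41, stood apart from the other 5 fasted LWT mice, which lay between 14.2 and 15.3. The fasted genotype difference of Gadd45g was 1.08 (SE 0.35, adjusted p = 0.0306), or 2.11-fold, with 5 of 6 arrays labelled LKO above all LWT arrays. Within the 3 slides it was 0.78, 2.17 and 0.66, and the slide with 2.17 is the one that holds LWT_Fasted replicate 1. Its call was lost without LKO_Fasted replicate 3 (adjusted p = 0.0881), LKO_Fasted replicate 5 (0.0833) or LWT_Fasted replicate 5 (0.0505), and on the 2 fasted groups alone (0.139). Without LWT_Fasted replicate 1 it was still called, at a smaller difference of 0.70 (adjusted p = 0.0385). The fasting change was smaller in LKO, with an interaction of -0.88 (95% interval -1.86 to 0.11, adjusted p = 0.276), which did not pass. Without LWT_Fasted replicate 1 this interaction was -1.27 with an adjusted p of 0.0179, and it was called. Within the 3 slides, with all mice, the interaction was -1.22, 0.34 and -1.39. Its sign differed on 1 slide, again the one that holds LWT_Fasted replicate 1, so this is not a separate sign of instability.

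Ccng2, an unusual cyclin that is linked to cell cycle exit and is a known FOXO target, rose with fasting in both genotypes. Its main probe (chr5:93704874-93704933, mm9) ran from 9.17 over a median of 9.57 to 9.75 in LWT_Fed and from 10.74 over 11.04 to 11.26 in LWT_Fasted. In LKO it ran from 8.87 over 9.35 to 9.97 fed and from 10.59 over 10.87 to 11.28 fasted. Fed and fasted mice did not overlap in either genotype. The rise was 2.73-fold in LWT (log2 difference 1.45, SE 0.13, adjusted p = 1.5e-08) and 2.88-fold in LKO (log2 difference 1.53, SE 0.15, adjusted p = 2.4e-08), and the difference between these log2 changes was 0.08 (95% interval -0.33 to 0.49, adjusted p = 0.852). A second Ccng2 probe rose by 0.84 in LWT and 0.95 in LKO (adjusted p = 1.29e-06 and 8.27e-07). Neither genotype comparison passed, with -0.20 in fed mice (95% interval -0.48 to 0.08) and -0.12 in fasted mice (95% interval -0.42 to 0.18).

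Mdm2 moved little. Its probe (chr10:117126010-117126069, mm9) had medians of 11.60 and 11.89 in fed and fasted LWT mice and 11.68 and 11.95 in fed and fasted LKO mice. The rise with fasting was 0.24 in LWT (SE 0.06, adjusted p = 0.00219) and 0.27 in LKO (SE 0.06, adjusted p = 0.00165), both under the minimum fold, and a second probe rose by 0.17 and 0.20. Its genotype differences were 0.09 fed and 0.12 fasted and did not pass (95% intervals -0.04 to 0.21 and -0.01 to 0.25).

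The sestrins hold back mTORC1 by binding the GATOR2 complex and activate AMPK. Sesn3, known as a FOXO target, was lower and not higher after fasting. Its main probe (chr9:14137354-14137413, mm9) ran from 9.90 over a median of 10.12 to 10.51 in LWT_Fed and from 9.39 over 9.57 to 9.91 in LWT_Fasted. The highest fasted mouse slightly overlapped the fed range, and the difference of -0.54 (SE 0.09, adjusted p = 6.07e-05) passed at 1.45-fold without being called. Without LWT_Fasted replicate 5 it was called, at -0.60. In LKO the fed mice lay close together, from 10.14 over 10.22 to 10.24, and the fasted mice from 9.31 over 9.45 to 9.68. These ranges did not overlap, and the difference was -0.71 (SE 0.10, adjusted p = 7.49e-06), or 1.64-fold, which was called. A second probe changed by -0.46 in LWT and -0.57 in LKO and was called in neither. The 2 fasting changes differed by -0.17 (95% interval -0.46 to 0.11, adjusted p = 0.484). Genotype differences of Sesn3 were 0.03 fed (95% interval -0.16 to 0.23) and -0.14 fasted (95% interval -0.35 to 0.07).

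Sesn1, known as a p53 target, did not pass for fasting, with -0.05 in LWT (95% interval -0.25 to 0.15) and 0.23 in LKO (95% interval 0.01 to 0.45, adjusted p = 0.0882). Its probe lies at chr10:41628000-41628059 (mm9). Medians were 10.30 in LWT_Fed, 10.36 in LWT_Fasted, 10.47 in LKO_Fed and 10.70 in LKO_Fasted. In fasted mice, 5 of 6 arrays labelled LKO lay above all LWT arrays and the difference was 0.41 (SE 0.10, adjusted p = 0.00723), or 1.33-fold, which passed and was not called. On the 2 fasted groups alone it did not pass (adjusted p = 0.0636), and within the 3 slides it was 0.05, 0.43 and 0.68. In fed mice the difference was 0.14 (95% interval -0.07 to 0.34, adjusted p = 0.382).

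Bcl6 is a zinc finger repressor that in liver opposes STAT5, the factor of growth hormone signalling, and restrains lipid genes. It fell with fasting from a fed state in which single mice differed widely. Its main probe (chr16:23965160-23965219, mm9) read 13.51, 12.78, 11.14, 13.62, 10.86 and 12.05 in LWT_Fed replicates 1 to 6 and 12.14, 11.67, 10.32, 10.35, 10.98 and 10.07 in LWT_Fasted replicates 1 to 6. In LKO_Fed replicates 1 to 6 it read 11.27, 13.64, 12.66, 10.26, 13.17 and 12.07. In LKO_Fasted replicates 1 to 6 it read 9.65, 9.82, 9.68, 9.78, 9.53 and 9.55. The fed groups each spanned a range of more than 2 log2 units, while the fasted arrays labelled LKO lay within a narrow band, with an SD of 0.12 against 1.26 in LKO_Fed. In LWT, fed and fasted mice overlapped, and in LKO they did not.

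The fall of Bcl6 was 5.52-fold in LKO, a log2 difference of -2.47 (SE 0.59, adjusted p = 0.00175), and 3.36-fold in LWT, a difference of -1.75 (SE 0.53, adjusted p = 0.0105). The LWT call was lost without LWT_Fasted replicate 6 (-1.53, adjusted p = 0.0585), and the second probe gave -1.14 there (adjusted p = 0.108) beside -2.15 in LKO (adjusted p = 0.00778). Within the 3 slides, the LWT difference was -0.13, -1.92 and -2.17. All 6 fasted arrays labelled LKO lay below all 6 fasted LWT arrays, but in the model, which shares 1 spread over the groups, the difference of -1.14 (95% interval -2.34 to 0.05, adjusted p = 0.175) did not pass. Fed mice differed by -0.42 between genotypes (95% interval -1.55 to 0.70, adjusted p = 0.651). The second probe gave the opposite sign in fed mice (0.60, adjusted p = 0.523) and, with overlapping groups, -0.41 in fasted mice (adjusted p = 0.688). The fasting changes differed by -0.72 (95% interval -2.36 to 0.92, adjusted p = 0.634).

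Socs2, a STAT5 target that damps growth hormone signalling, was in the list fixed for Bcl6 and was set beside it mouse by mouse after its values were seen. It was 8.56, 9.94 and 10.46 at the lowest, median and highest mouse of LWT_Fed, 9.42, 10.44 and 12.29 in LWT_Fasted, 10.23, 10.71 and 11.25 in LKO_Fed and 12.42, 13.31 and 13.52 in LKO_Fasted. The group in which the main Bcl6 probe was lowest in every mouse was the group in which Socs2 was highest in every mouse. On the second Bcl6 probe, LKO_Fasted ran from 5.78 to 6.24 and overlapped every other group. The lowest mice there were at 6.11 in LWT_Fed, 6.05 in LWT_Fasted and 6.06 in LKO_Fed. Socs2 rose with fasting by 1.49 in LWT (SE 0.45, adjusted p = 0.0106) and by 2.58 in LKO (SE 0.50, adjusted p = 0.000258), and fasted arrays labelled LKO were higher by 2.27 (SE 0.49, adjusted p = 0.00224). Within groups of 6 mice, Pearson's r between the log2 signals of the 2 genes was -0.78 in LWT_Fed, -0.87 in LWT_Fasted, -0.13 in LKO_Fed and -0.65 in LKO_Fasted. Two-sided exact permutation p-values were 0.0861, 0.0389, 0.781 and 0.167, or 0.172, 0.156, 0.781 and 0.222 after Benjamini-Hochberg adjustment over these 4 relations, so none passed. Spearman's rho was -0.66, -0.94, -0.14 and -0.43, with exact permutation p-values of 0.175, 0.0167, 0.803 and 0.419 and adjusted values of 0.35, 0.0668, 0.803 and 0.559. Without the 2 mice farthest from the median of Bcl6, which leaves 4 in a group and too few for a test, r was -0.77, -0.68, -0.97 and -0.67. In LKO_Fed the value thus turned on those 2 mice, and no relation between the 2 genes is read from these groups.

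**Figure D3:**
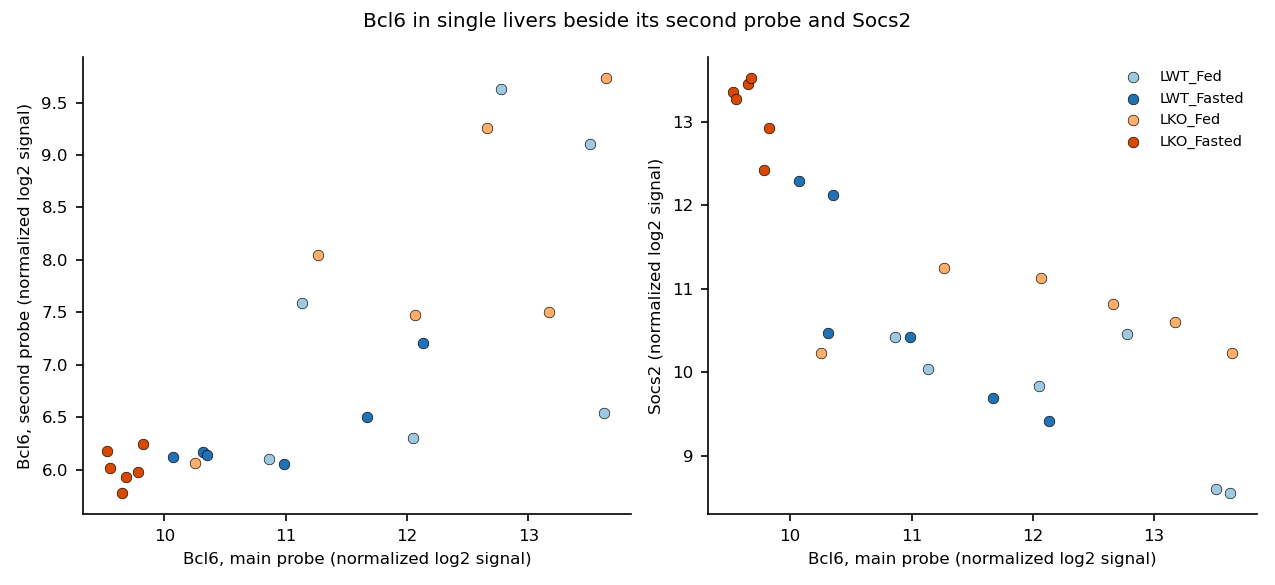
Each point is 1 of the 24 livers, coloured by group, with the normalized log2 signal of the main Bcl6 probe on both horizontal axes and that of its second probe (left) or of Socs2 (right) on the vertical axes. The 6 LKO_Fasted mice sit together at the lowest Bcl6 values, from 9.53 to 9.82, and at the highest Socs2 values, from 12.4 to 13.5, and the second probe is high in only some of the mice with a high main probe.

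Genes related to these 10 by role were counted in lists that leave the 10 out. Of 22 FOXO targets, all tested, 13 were called higher and 1 lower after fasting in LWT, and 12 higher and 1 lower in LKO, with list medians of 0.66 in both. The lower one was Cited2 in both (-0.59 and -1.01). Of all genes tested, 4.79% were called higher and 5.24% lower in LWT, and 5.88% and 6.85% in LKO. Pdk4, which turns the liver from glucose to fat oxidation, rose by 2.64 in LWT and by 4.32 in LKO (adjusted p-values 1.56e-06 and 5.21e-09), and the 2 changes differed by 1.68 (adjusted p = 0.0426). Irs2, an adaptor of the insulin receptor, rose by 2.61 and 1.92. Pnpla2, the lipase ATGL, rose by 2.03 and 2.27, and Txnip, a thioredoxin inhibitor, by 1.89 and 2.06. On fed arrays labelled LKO, 3 FOXO targets were called higher and 0 lower, against 2.65% and 1.19% of all genes. The list median was 0.03, with 10 of 22 at an unadjusted p under 0.05 in limma. Without a minimum fold 8 passed, in both directions. Those called were Igfbp1 (1.89), Irs2 (1.60) and Pck1 (0.81), named after their values were seen. On fasted arrays labelled LKO, Igfbp1 (1.63), Pdk4 (1.17) and Irs2 (0.91) were called higher and Klf15 (-0.67) lower. The list median was -0.04 there, and 1.76% of all genes were called higher and 2.28% lower. Of this list, the interaction called Pdk4 and, in the other direction, Klf15 (-0.82). Over all genes, it called 1.58% with a larger and 1.54% with a smaller value in LKO. Cited2 and Klf15 were also named after their values were seen.

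Of 27 p53 targets, 26 were tested, and fewer were called. After fasting, 4 were called higher and 1 lower in LWT, and 5 higher and 2 lower in LKO, with medians of 0.04 and 0.09. Of all genes tested, 4.79% were called higher and 5.24% lower in LWT, and 5.88% and 6.85% in LKO. The counts of p53 targets called lower are thus near the shares of all genes. The stress hormone Gdf15 rose by 0.80 in LWT and by 1.36 in LKO (adjusted p-values 0.0215 and 0.000948). Btg2, an antiproliferative gene, passed in LWT at 0.58 and was called in LKO at 0.92. Bbc3, which encodes the apoptosis protein PUMA, was lower after fasting, with -0.83 in LWT and -0.85 in LKO. Sesn2, the third sestrin, rose by 0.72 in LWT, where it was called, and by 0.27 in LKO, where it passed without being called, and the 2 changes differed by -0.44 (adjusted p = 0.041). Between genotypes, 0 p53 targets were called in fed mice, with 6 of 26 at an unadjusted p under 0.05 in limma, and 1 in fasted mice, Trp53inp1 (-0.77, adjusted p = 0.00755). Of all genes, 2.65% were called higher and 1.19% lower in fed mice, and 1.76% and 2.28% in fasted mice. Counts this low are near those shares. The interaction called Pmaip1 (0.67) with a larger and Trp53inp1 (-0.90) with a smaller value in LKO, against 1.58% and 1.54% of all genes. Sesn2, Trp53inp1 and Pmaip1 were named after their values were seen.

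Several cell cycle genes were lower after fasting. Of 20 cyclins, CDKs and proliferation genes, 19 were tested, and 7 were called lower in LWT and 4 in LKO, with medians of -0.39 and -0.07 and 0 called higher in either, beside 14 and 10 at an unadjusted p under 0.05 in limma. Of all genes tested, 5.24% were called lower in LWT and 6.85% in LKO, and 4.79% and 5.88% higher. Ccnd1, a cyclin that drives entry into the cell cycle, fell with fasting, by log2 differences of -1.58 in LWT and -1.40 in LKO (adjusted p-values 1.66e-06 and 2.81e-05), and was higher on fasted arrays labelled LKO by 0.76 (adjusted p = 0.0166). Ccnd2 changed by -1.1 in LWT and -0.65 in LKO, and Rbl1, a pocket protein, by -0.87 and -0.78. Mcm2, a subunit of the replicative helicase, was called lower in LWT, at -0.87. Other genes of the list passed upward without being called, among them Rbl2 (0.52 in LWT and 0.45 in LKO), Cdk2 (0.33 and 0.31) and Ccnd3 (0.15 and 0.49), named after their values were seen. In fed mice, 0 of the 19 were called between genotypes, with 7 at an unadjusted p under 0.05. Of all genes, 2.65% were called higher and 1.19% lower there, so 0 of 19 is near those shares.

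Regulators and partners of the 10 genes were counted in the same way, and the shares of all genes called in each comparison are those given above. Of 15 tested of 17 regulators of p53 and FOXO, Foxo1 was called higher after fasting in LWT (0.71, adjusted p = 1.76e-05) and lower on fasted arrays labelled LKO (-0.63, adjusted p = 0.000741), with an interaction of -0.66 (adjusted p = 0.0159). No other regulator was called in any comparison. Of 5 GADD45 partners, Map3k4, the kinase they activate, fell with fasting, at -0.89 in LWT and -0.79 in LKO, and was the only partner called. Of 8 partners of Bcl6 and STAT5 genes, Socs2 was called as above, and the corepressor Bcor rose by 0.75 in LKO (adjusted p = 6.53e-05). Of 4 tested of 6 other CDK inhibitors and of 13 sestrin partners, 0 were called in any comparison, with 1 to 3 of 4 and 1 to 8 of 13 at an unadjusted p under 0.05 in limma.

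**Figure D4:**
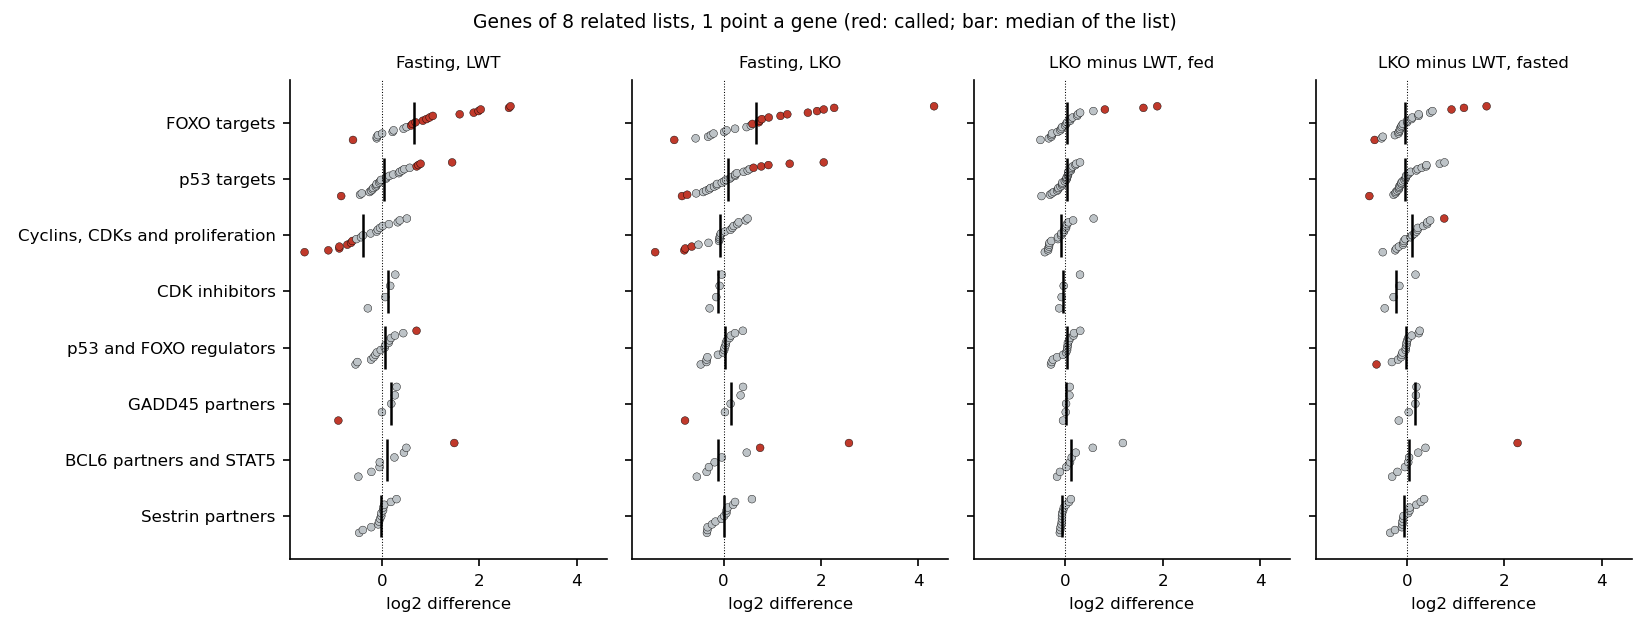
The log2 difference (horizontal axis) of each tested gene in 8 lists of related genes, with 1 point a gene, called genes in red and the list median as a bar, in the 4 pairwise comparisons. FOXO targets lie mostly right of 0 after fasting, with 13 and 12 called higher, and the genotype panels hold 3 red points to the right for this list in each state.

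For each member called in any comparison, likeness to other genes was measured as the root mean square difference between log2 signals centred on their means, over 24 arrays. Irs2 was nearest to Gadd45g at 0.49, where the spread of Gadd45g itself was 1.57 on the same measure. Plin4, a lipid droplet protein, was nearest to Cdkn1a at 0.59 (own spread 1.66), followed by Slc25a34 and Asic5. Klhl24 (0.22), Cobll1 and Slc25a32 were nearest to Ccng2 (own spread 0.80), and Tbc1d8 (0.39), Unc93a and Nceh1 to Gadd45b (own spread 1.17). Gpcpd1 and Flvcr2 followed Irs2 for Gadd45g. Gadd45a (own spread 0.68) was nearest to Slc35d2 (0.27), Gng11 and Ostc, and Sesn3 (own spread 0.35) to Rab40b (0.13), Mgat5 and Fgf11. The genes nearest to Bcl6 (own spread 1.39), Gm32872, Kcnk5 and Tmem14a, were 0.72 to 0.84 away. This measure also counts differences in amplitude.

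Markers of other cell types also differed between some of the groups compared here. On arrays labelled LKO, Spp1, of the cholangiocyte list, was lower by a log2 difference of -1.50 in fed and -2.11 in fasted mice, Cfd, of the adipose list, by -2.78 and -2.99, and Alas2, of the erythroid list, by -0.80 and -0.83. The other 2 erythroid markers tested were not called, with Hba-a1 at -0.33 in fed and 0.51 in fasted mice and Hbb-b1 at -0.39 and 0.39. The mean log2 signal of the 3 erythroid markers ranged over the mice from 13.7 to 14.3 in LWT_Fed, 12.8 to 14.3 in LWT_Fasted, 13.2 to 14.7 in LKO_Fed and 13.0 to 14.3 in LKO_Fasted. The mean log2 signal of 5 cholangiocyte markers ranged over the mice from 7.26 to 7.97 in LWT_Fed, 7.29 to 7.55 in LWT_Fasted, 6.81 to 7.39 in LKO_Fed and 6.40 to 7.03 in LKO_Fasted. That of the 3 tested of 4 adipose markers ranged from 6.92 to 7.94, 6.60 to 8.74, 6.29 to 6.64 and 6.44 to 7.12 in the same order. Cfd was the only adipose marker called, where Lep differed by -0.12 in fed and -0.18 in fasted mice and Retn by -0.13 and 0.00, and Adipoq was not tested. The endothelial marker Lyve1 was lower by -0.88 on fed arrays labelled LKO. Of the endothelial markers, 1 of 6 was called there, with a list median of -0.23. With fasting, Lrat, of the stellate cell list, changed by -0.89 in LWT and -0.95 in LKO. Of the stellate cell markers, 1 of 6 was called in each genotype, with list medians of -0.07 and -0.22. The cholangiocyte marker Krt19 changed with fasting by -0.67 in LWT and -0.59 in LKO. Spp1 was also called lower with fasting in LKO (-0.95, adjusted p = 0.00393), and gave -0.34 in LWT (adjusted p = 0.235). The part of such markers in the differences of Gadd45g, Gadd45b and Cdkn1a was not tested.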

How the data were processed

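The authors labelled liver RNA of 24 mice with Cy3 for 1-colour Agilent arrays. Feature Extraction 10.10.1.1, which the submitters' processing notes name, read the spots. The deposited values are, per the file headers, spot intensity: the median and mean signal, the local background and a processed signal. A deposited series matrix holds log2 values that the authors filtered, corrected for the washing bath and quantile normalized from the median signal. The labels do not name the bath. Probe positions are mm9 (NCBI37).

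The members and lists were chosen with earlier results of these data known. Control spots and spots flagged as outliers were left out, and the 300 probes printed on 10 spots were averaged. A probe was kept if well above background on at least 5 of 6 arrays of a group, which left 32197 probes with 46 missing values. Median signals were log2 transformed and quantile normalized. A linear model with 4 group means and a term for slide, with arrays weighted by quality, was fitted with limma 3.58.1 in R 4.3.3 (lmFit, arrayWeights, eBayes), and p-values were adjusted by Benjamini-Hochberg over all 32197 probes. For counts, each gene had the kept probe with the highest mean signal. Symbols came from the files, updated for 32994 probes through a RefSeq table of GRCm38.p6, which changed 1535. The fit was tested on simulated data. Exact permutations were enumerated in Python 3.11.15 with numpy 2.4.6, and ranks came from scipy 1.17.1. Each array holds 1 mouse, so p-values measure the spread between mice.

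Named were all 10 members, up to 4 called genes of each list with the largest change, and the 3 genes most like each called member. Lists were FOXO targets, p53 targets, cell cycle genes, CDK inhibitors, regulators, partners of GADD45, BCL6 and sestrins, and cell type markers. Alternatives changed the signal, background correction, normalization, filter, slide, weights, samples and replicate block. The number of arrays limits precision. The values of 1 gene that this rule names are not reported here.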

Additional observations from a re-analysis of the deposited data

Results flagged for a closer look

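Among 40 groups of 6 mice, 10 genes in 4 groups each, 3 held a mouse far from the other 5, and chance gives this in about 1 of 20 groups. Gadd45b in LKO_Fasted replicate 5 was at a normalized log2 signal of 11.21, where the others lay between 10.13 and 10.44. Gadd45g in LWT_Fasted replicate 1 was at 12.41, where the others lay between 14.2 and 15.3. Mdm2 in LKO_Fasted replicate 4 was at 12.24, where the others lay between 11.9 and 12.0. No fasting change of a member passed the test of a difference between genotypes.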

How the results depend on the processing

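For fasting, where 6 members were called in LWT and 7 in LKO, 9 and 8 passed without a minimum fold, and 5 to 7 and 7 were called without single replicates. For genotype in fed mice, where 1 member was called, 2 were called with the replicate block, with the array row as a further term, without array weights, without a slide term, without a minimum fold, over probes well above background on all 24 arrays, on the processed signal and on the series matrix values. The count was 1 to 2 without single replicates. The second member was Cdkn1a with the replicate block (log2 difference -0.90, adjusted p = 0.0293), without array weights (-0.97, 0.0372), without a slide term (-0.88, 0.0372), on the series matrix values (-0.85, 0.0495) and without LWT_Fed replicate 5 (-1.15, 0.0267), and otherwise Gadd45b. For genotype in fasted mice, where 3 were called, 1 was called on the fasted groups alone, 4 passed without a minimum fold, 1 to 3 were called without single replicates, and 2 were called without both LKO_Fasted replicates 1 and 2, where Cdkn1a lost its call (adjusted p = 0.0814). For the interaction the count was 0, and 0 to 1 without single replicates, the 1 being Gadd45g without LWT_Fasted replicate 1. The cause of these changes was not tested. No called value changed sign. Deviations from the group means of same-numbered mice of different groups had r from -0.18 to 0.28 in 36 pairs, with 4 pairs over 0.1. Pairs of unlike number were not computed for reference and slide was not removed. This check therefore cannot decide whether the numbers pair the mice. The interaction could not be fitted on the compared groups alone, since it uses all 4.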
